A study of Mus musculus with 33 samples.

Results

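The conditional deletion of Irf8 in microglia was measured in 7 of the 33 RNA-seq libraries of the series, chosen by their titles. Of these, 3 came from mice with a floxed Irf8 allele and no Cre (genotype label IRF8flox, titled WT, called flox here), and 4 came from mice that also carried the tamoxifen-inducible recombinase Cx3cr1CreERT2 (genotype label IRF8floxCx3cr1CreERT2, titled Cre). Per the labels, all 7 libraries came from female C57BL/6 mice, and both groups received tamoxifen on 5 consecutive days starting at postnatal day 12 and were sampled at 3 months of age. The Cre is expressed from Cx3cr1, a gene of microglia and other mononuclear phagocytes, and the design text of the study adds a Rosa26 reporter and a sort for YFP-positive cells. How the flox controls, which have no Cre to switch on such a reporter, were gated is not stated. The comparison asks which genes depend on IRF8 when the factor is removed after birth. It is set beside a germline Irf8 knockout (IRF8KO) with its own WT group at 3 months, 4 libraries each. Those libraries are labelled as female C57BL/6 mice with no treatment. A further WT group at 3 months, titled as the control for a Batf3 knockout, is used for levels only. An alternative model of all libraries of the series adds Batf3 knockout mice and groups at 9 months, among them 5xFAD mice.

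IRF8 is an interferon regulatory factor that binds DNA poorly alone and acts with partners. With the ETS factor PU.1 it binds composite ETS and interferon elements, with other IRF proteins it binds interferon-stimulated response elements, and with BATF factors it binds elements that join an AP-1 site. In the mononuclear phagocyte lineage it is needed for certain dendritic cells and monocytes, and in microglia it is known as a factor for the mature state. BATF3 is a leucine zipper partner of IRF8 in dendritic cells. Microglia without IRF8 are known to have altered shape and lower levels of several microglial genes.

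Each library held 7761112 to 11177375 counts in genes, which were 53.3% to 63.8% of all its reads, and 23060 to 23573 genes had at least 1 count. A level in CPM is a gene's count divided by the size of its library, which TMM factors computed over the 7 libraries had adjusted. Tmem119, a marker of microglia, was present in every library at 2750 to 5740 CPM. Nothing in the labels says that replicates came from separate mice, so the p-values measure the spread between these libraries. The reads carry no molecular identifiers, so intervals and floors cover counting error only. In bulk samples like these, fewer cells of a type and less RNA per cell cannot be told apart.

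The targeted gene was examined first. Irf8 (chromosome 8, 120736358 to 120756694, plus strand, GRCm38) stood at 1090, 1240 and 969 CPM in the flox libraries. It stood at 1130 CPM in the library titled Cre replicate 1, and at 442, 365 and 519 CPM in Cre replicates 2, 3 and 4. The library titled Cre replicate 1 therefore lay inside the flox range, against its title, and the other 3 Cre libraries lay below every flox library. Over all 7 libraries the log2 change of Irf8 was -0.84 ± 0.319 (SE) with an adjusted p of 0.421 by edgeR's quasi-likelihood test. Without Cre replicate 1 the log2 change was -1.32, which is given as a description because the level of Irf8 chose the library left out. The counts cover the whole gene, and which exons lie between the loxP sites is not given in the sources used here, so a deletion of some exons need not lower them.

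The same split of the libraries was seen in other genes of microglia and of the IRF8 pathway. Batf3 stood at 4.3, 4.56 and 1.92 CPM in flox and 1.32 CPM in Cre replicate 1, but at 34.5, 67.4 and 47.4 CPM in Cre replicates 2 to 4, so the libraries with lower Irf8 had higher Batf3. Cx3cr1, the fractalkine receptor and the gene that drives the Cre, stood at 1000, 1390 and 949 CPM in flox and 1170 CPM in Cre replicate 1, against 2980, 2350 and 2760 CPM in Cre replicates 2 to 4. Common Cx3cr1CreERT2 alleles replace the coding sequence of 1 copy of Cx3cr1, although the labels do not say which allele was used. Aif1, which encodes the microglial marker IBA1, stood at 336, 379 and 332 CPM in flox, 294 CPM in Cre replicate 1 and 901, 1030 and 1050 CPM in Cre replicates 2 to 4. Apoe, the main lipid carrier of the brain, was lower instead, standing at 17500, 10100 and 17400 CPM in flox, 11700 CPM in Cre replicate 1 and 986, 1340 and 1620 CPM in Cre replicates 2 to 4. In each of these 4 genes the groups of flox and Cre replicates 2 to 4 did not overlap, and Cre replicate 1 lay on the flox side. Whether the titles name the animals they should was not tested, and every direction below is given as titled.

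**Figure D1:**
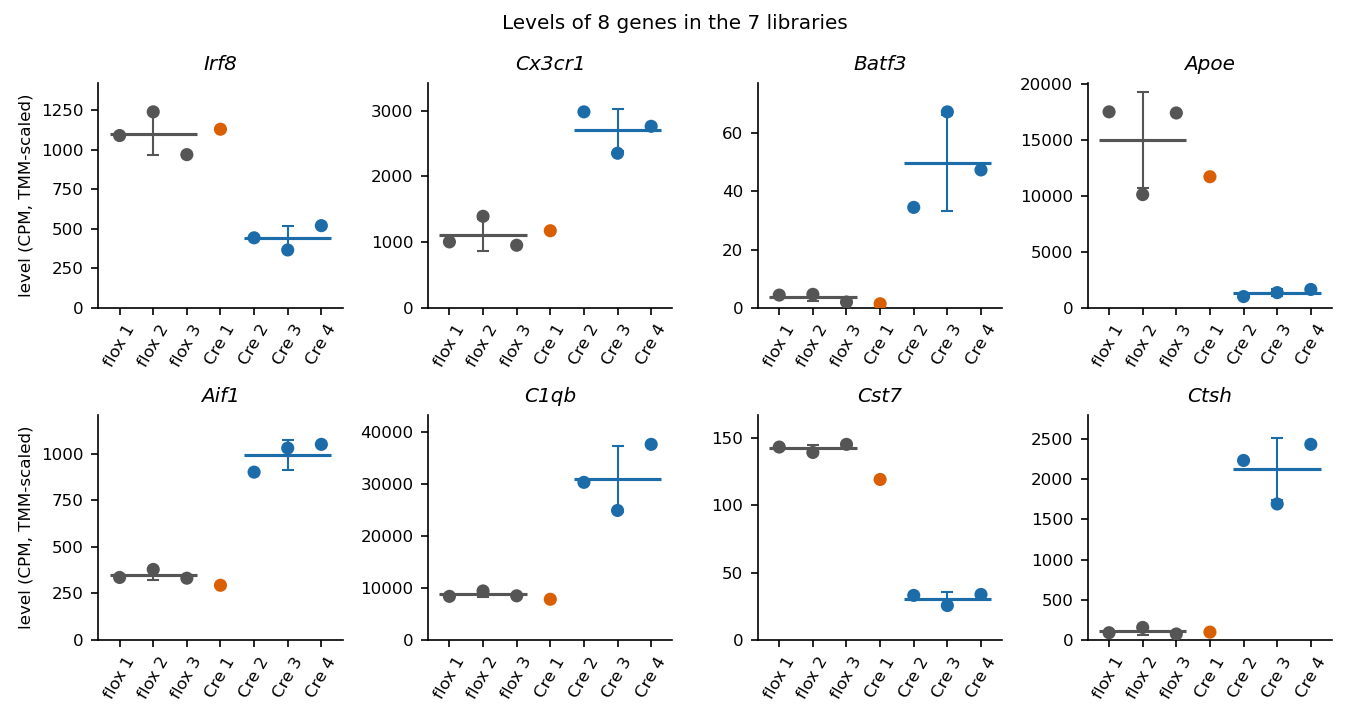
Levels of 8 genes in each of the 7 libraries, in CPM with TMM scaling on linear axes that start at 0. Points are libraries (grey flox, orange Cre replicate 1, blue Cre replicates 2 to 4), lines are means of the 3 flox and of the 3 Cre libraries 2 to 4, and bars are ± SD. Cre replicate 1 sits with flox in Irf8 (1130 CPM), Cx3cr1 (1170 CPM) and the other genes shown.

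With all 7 libraries, edgeR's quasi-likelihood test called 0 of 15512 genes at an adjusted p under 0.05 (0%), while 1407 genes had an unadjusted p under 0.05. On the same libraries DESeq2 called 164 genes and limma voom with quality weights called 257. Without Cre replicate 1 the same edgeR test called 952 of 15264 genes (6.24%), 571 of them higher in Cre (3.74%) and 381 lower in Cre (2.5%). That library was left out for its Irf8 level, so the adjusted p-values of the 6-library fit are not independent of that choice. Flox and Cre did not overlap in 1134 of 15512 genes (7.31%) over 7 libraries and in 3010 of 15264 genes (19.7%) without Cre replicate 1. Groups this small also separate by chance, more often with 6 libraries than with 7, so the 2 shares cannot be compared directly. In the 952 called genes, Cre replicate 1, which had no part in that fit, lay nearer to the flox mean than to the mean of the other Cre libraries in 891 genes (93.6%). It lay within the flox range in 435 of them and within the range of Cre replicates 2 to 4 in 30. On a scale where 0 is the flox mean and 1 the mean of Cre replicates 2 to 4, its median position was -0.004 (quartiles -0.2 and 0.2, on log2(CPM + 0.5)). In genes called higher the median was -0.1, with Cre replicate 1 below the flox mean in 366 of 571. In genes called lower the median was 0.12, with Cre replicate 1 above the flox mean in 114 of 381. Over genes of at least 5 CPM, Cre replicate 1 correlated with flox at 0.958 to 0.973 and with the other Cre libraries at 0.898 to 0.923, on log2 values across genes, while flox and Cre replicates 2 to 4 correlated at 0.912 to 0.93. The first principal component, with 53.8% of the variance, put flox and Cre replicate 1 between -31.2 and -19.1 and the other Cre libraries between 22.9 and 39.3.

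**Figure D2:**
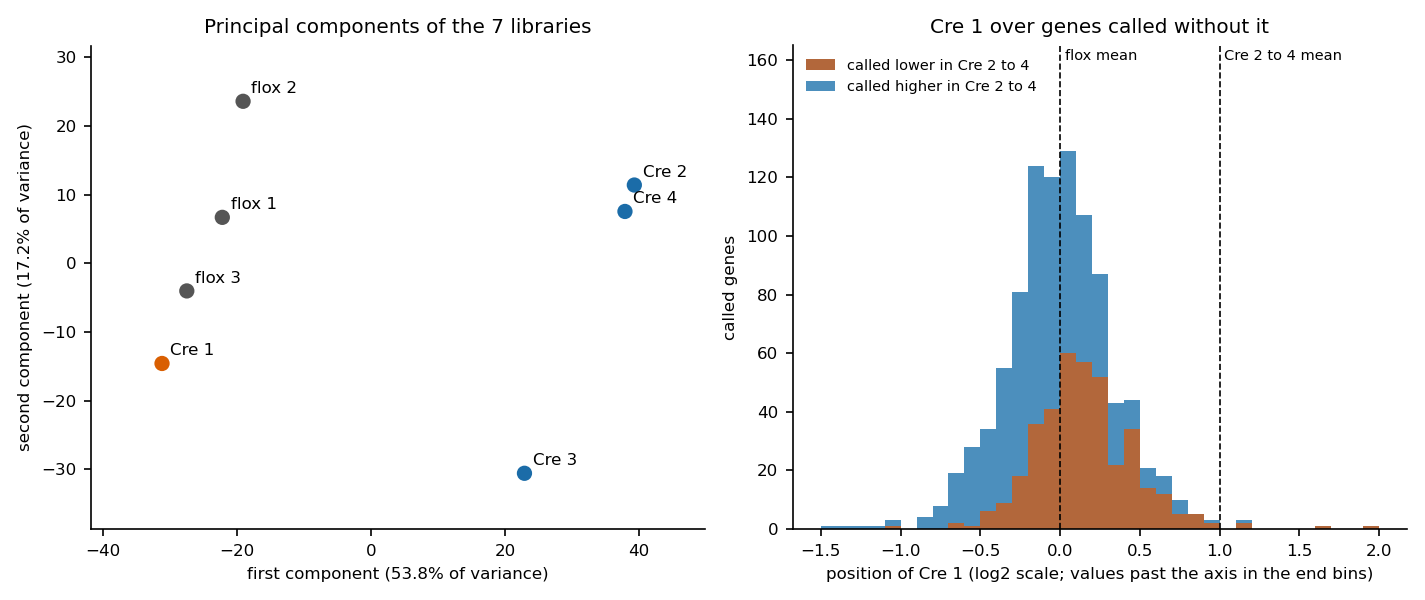
Left, the 7 libraries on the first and second principal components of log2(CPM + 0.5), which hold 53.8% and 17.2% of the variance. Right, a histogram of the 952 genes called without Cre replicate 1 by the position of Cre replicate 1 on a log2 scale, where dashed lines mark the flox mean (0) and the mean of Cre replicates 2 to 4 (1), and bars are stacked by direction. The histogram is centred near 0, with a median of -0.004 (-0.1 for genes called higher and 0.12 for genes called lower).

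The largest falls included genes of lipid metabolism, innate immune receptors and interferon-induced membrane proteins. Ch25h, the enzyme that makes 25-hydroxycholesterol, stood at 126, 207 and 123 CPM in flox, 130 CPM in Cre replicate 1 and 0.106, 1.86 and 0.915 CPM in Cre replicates 2 to 4. Its log2 change without Cre replicate 1 was -7.32 ± 0.389 (SE, adjusted p = 1.29e-10 by edgeR), and over 7 libraries -2.20 (adjusted p = 0.683). Cck, the precursor of the neuropeptide cholecystokinin, stood at 373, 326 and 619 CPM in flox and 451 CPM in Cre replicate 1, against 7.21, 6.51 and 4.88 CPM in the other Cre libraries. In both genes 1 Cre library was as high as flox and 3 were far below, with no values between. Apob, an apolipoprotein, had 4.1 to 9 CPM in flox, 1.68 CPM in Cre replicate 1 and 0 counts in Cre replicates 2 to 4, so its level was at least 56.9-fold lower against a floor of 3 counts over the group. Clec4n, the C-type lectin receptor Dectin-2, had 4.08 to 7.17 CPM in flox, 3.47 CPM in Cre replicate 1 and 0 counts in the others, at least 53.3-fold lower. Tfec, a transcription factor related to MITF, had 2.39 to 8.36 CPM in flox and 3 or fewer counts over Cre replicates 2 to 4, a ratio of 46.3 (exact 95% counting interval 15.5 to 228).

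Ifitm2 and Ifitm1 encode interferon-induced transmembrane proteins. Ifitm2 stood at 23.1, 20.2 and 16.9 CPM in flox, 13.3 CPM in Cre replicate 1 and 0.203 to 0.465 CPM in Cre replicates 2 to 4, a log2 change of -5.89. Ifitm1 fell by 5.79 on the log2 scale and stood at 5.38 CPM in Cre replicate 1, below its flox range of 12.8 to 17.8 CPM. The other large falls were those of Adgre5, the adhesion receptor CD97 (-6.17), Cdc42ep1, an effector of the GTPase CDC42 (-5.98), Cd300ld, a CD300 family receptor (-5.82), and the noncoding F630028O10Rik (-5.29), which overlaps the miRNA gene Mir223. Pf4, the chemokine platelet factor 4, fell by 5.58 without Cre replicate 1, and the library left out held its highest level, 147 CPM against 26.6 to 64.5 CPM in flox. Among the 12 largest falls, Cre replicate 1 was above the highest of the other Cre libraries in all 12.

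The largest rises included receptors of leukocytes and a protease inhibitor. Spint1, a Kunitz-type inhibitor of serine proteases, stood at 8.72, 4.56 and 3.72 CPM in flox, 1.68 CPM in Cre replicate 1 and 187, 154 and 195 CPM in Cre replicates 2 to 4. Its log2 change was 4.97 ± 0.26 (SE, adjusted p = 1.1e-10 by edgeR) without Cre replicate 1 and 4.57 (adjusted p = 0.19) over 7 libraries. Cre replicate 1 was below every flox library, and the other Cre libraries were close together far above them. Ccr1, a receptor for inflammatory chemokines, had 0 to 0.478 CPM in flox, 0.598 CPM in Cre replicate 1 and 47.5, 27 and 39.1 CPM in Cre replicates 2 to 4 (log2 change 7.24). Slamf6, a SLAM family receptor, stood at 0.358, 3.87 and 0.72 CPM in flox, 2.03 CPM in Cre replicate 1 and 92.8, 64.4 and 73.1 CPM in the others (log2 change 5.5). Il7r, the interleukin 7 receptor chain, rose from 0.119 to 0.72 CPM in flox to 16 to 26.8 CPM in Cre replicates 2 to 4, with 0 counts in Cre replicate 1.

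Ms4a4c, a tetraspanning protein of the MS4A family, had 0 counts in all flox libraries and 2.34 to 6.68 CPM in Cre replicates 2 to 4, at least 42.9-fold higher against a floor of 3 counts over the group. Haao, an enzyme of the kynurenine pathway (log2 change 6.18), Adgrg5, an adhesion receptor (5.12), and Eva1a, which encodes a membrane protein (4.95), also rose. The rest were noncoding: Gm16118 (6.26), Plet1os (5.18), AU022793 (4.92) and Gm35154, whose flox group held 1 to 3 counts (ratio 152, exact 95% counting interval 26.9 to 6030). Gm16118 lies antisense to Wwox and Plet1os antisense to Plet1, and counts that ignore strand cannot separate them. Plet1os was uneven within its group, at 31.2, 1.51 and 28.7 CPM. In all 12 of these genes Cre replicate 1 stood at 2.51 CPM or less, as the plot of the largest falls and rises shows.

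**Figure D3:**
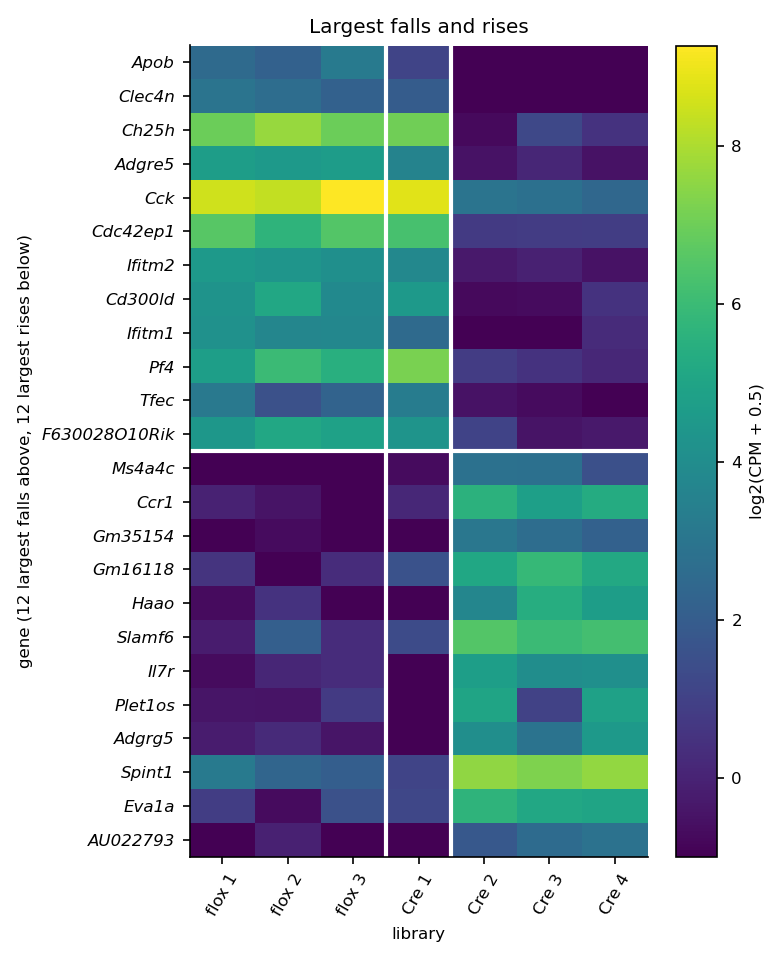
Heat map of log2(CPM + 0.5) for the 12 largest falls (above the white line) and 12 largest rises (below it) in the fit without Cre replicate 1, with 1 column per library. The column of Cre replicate 1, between the white vertical lines, resembles the flox columns, for example in Ch25h (130 CPM) and Spint1 (1.68 CPM).

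Promoters were read for elements that IRF8 is known to bind with partners, since many of the genes above moved together. AP-1 sites were read alone, without the rest of the element that IRF8 binds with BATF factors. In the 250 bases before the RefSeq start (GRCm38.p6), on both strands, GGAA followed after 2 bases by GAAA stands for the composite ETS and interferon element, GAAA followed after 2 bases by GAAA for the interferon-stimulated response element and TGANTCA for an AP-1 site. The first 2 differ at their second base, so the same letters on 1 strand cannot match both. Among genes called higher, 433 had a promoter entry and the composite element was in 3.93%, the response element in 5.54% and the AP-1 letters in 6.47%. Among genes called lower, 289 had an entry and the shares were 2.08%, 6.57% and 8.3%. Over all 27025 genes with an entry they were 2.68%, 3.46% and 7.82%, and over the 10386 tested genes with an entry 2.46%, 3.25% and 5.29%. Of the 24 genes with the largest changes, 3 had no entry (Clec4n, Adgre5 and AU022793), Ifitm2 and F630028O10Rik held a response element, and the entries of Batf3, Apoe, Spint1 and Irf8 itself held neither the composite nor the response element. The 6 windows below are some of those of called immune genes with a match, picked after their values were seen, and capitals mark the matching letters or their reverse complement, 5′ to 3′ along the gene's strand. Slamf8, Fcgr2b, Aif1 and Ctss were higher and Ifitm2 and Ifit3 lower in Cre replicates 2 to 4, and Fcgr2b alone of these 6 holds the composite element.
Slamf8 (chr1:172590569-172590818, minus strand): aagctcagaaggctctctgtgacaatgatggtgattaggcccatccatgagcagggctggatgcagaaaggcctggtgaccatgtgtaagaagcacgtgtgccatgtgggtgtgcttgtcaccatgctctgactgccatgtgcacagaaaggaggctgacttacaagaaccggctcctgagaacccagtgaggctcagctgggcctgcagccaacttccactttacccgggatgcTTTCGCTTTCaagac
Fcgr2b (chr1:170976072-170976321, minus strand): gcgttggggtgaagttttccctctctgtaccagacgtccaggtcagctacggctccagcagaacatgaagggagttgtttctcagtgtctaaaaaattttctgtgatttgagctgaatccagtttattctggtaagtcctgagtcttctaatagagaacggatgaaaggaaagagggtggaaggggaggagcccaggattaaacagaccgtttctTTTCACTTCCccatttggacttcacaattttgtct
Aif1 (chr17:35176053-35176302, minus strand): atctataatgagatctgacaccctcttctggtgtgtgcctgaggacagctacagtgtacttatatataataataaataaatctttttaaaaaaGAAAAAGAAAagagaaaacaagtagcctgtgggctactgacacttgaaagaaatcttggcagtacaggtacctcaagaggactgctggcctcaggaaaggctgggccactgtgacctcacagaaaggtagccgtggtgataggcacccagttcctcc
Ctss (chr3:95526536-95526785, plus strand): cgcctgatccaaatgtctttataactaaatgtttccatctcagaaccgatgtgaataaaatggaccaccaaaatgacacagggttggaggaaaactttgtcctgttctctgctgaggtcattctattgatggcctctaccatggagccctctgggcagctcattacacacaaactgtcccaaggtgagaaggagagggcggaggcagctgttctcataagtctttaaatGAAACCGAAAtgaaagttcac
Ifitm2 (chr7:140955962-140956211, minus strand): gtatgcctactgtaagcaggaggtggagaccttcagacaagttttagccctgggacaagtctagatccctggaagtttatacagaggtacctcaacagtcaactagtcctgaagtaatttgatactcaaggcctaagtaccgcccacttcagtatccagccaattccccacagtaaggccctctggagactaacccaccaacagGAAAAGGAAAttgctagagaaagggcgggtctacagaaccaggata
Ifit3 (chr19:34583279-34583528, plus strand): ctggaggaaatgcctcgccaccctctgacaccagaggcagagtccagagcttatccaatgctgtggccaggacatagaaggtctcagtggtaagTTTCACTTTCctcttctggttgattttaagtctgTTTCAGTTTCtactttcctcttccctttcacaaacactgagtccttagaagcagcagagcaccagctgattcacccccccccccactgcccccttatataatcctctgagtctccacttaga

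Slamf8, a receptor of the SLAM family, stood at 3.35, 1.37 and 0.96 CPM in flox, 0.479 CPM in Cre replicate 1 and 28, 30.4 and 33.2 CPM in Cre replicates 2 to 4. Fcgr2b, the inhibitory Fc receptor for IgG, stood at 164, 113 and 134 CPM in flox, 68.6 CPM in Cre replicate 1 and 674, 331 and 522 CPM in the others. Ctss, the protease cathepsin S, stood at 5990, 5900 and 5090 CPM in flox, 4290 CPM in Cre replicate 1 and 12400, 9550 and 11700 CPM in the others. In all 3 genes Cre replicate 1 was the lowest of the 7 libraries. Ifit3, an interferon-induced gene, stood at 29, 18.1 and 25.6 CPM in flox, 26.1 CPM in Cre replicate 1 and 15.7, 8.95 and 11.1 CPM in the others, and its promoter window holds the response element at 2 places.

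The gene groups that follow are given for the fit without Cre replicate 1, as members called higher, lower and not called. The median of all genes was -0.01 on the log2 scale, and 6.24% of all genes were called. With a filter at 5 CPM in 3 libraries, 931 of 10811 genes were called. The lists were chosen with earlier results of these data known, so a share above that of all genes is no test of a list. Losses of calls with a further library left out are given where a list's count fell by more than 1.5 times. With all 7 libraries no member of any group was called. Among 31 microglial transcription factors, 2 rose and 6 fell (median -0.13). Sall1, a factor of microglial identity, rose by a log2 change of 0.90 from 95.2, 61.5 and 51.5 CPM in flox to 168, 106 and 114 CPM, with 52.3 CPM in Cre replicate 1. The call of Sall1 was lost without flox replicate 2 (adjusted p = 0.0753), flox replicate 3 (0.111) or Cre replicate 2 (0.14). It was also lost with all libraries of the series in one model. Of the 2 rises in the list, 0 were called without flox replicate 3 or Cre replicate 2 and 1 without flox replicates 1 or 2 or Cre replicate 4. Those that fell were Tfec, Fos (-3.26), Bhlhe41 (-1.36), Klf2 (-1.19), Smad3 (-0.97) and Irf8 itself, which is counted here although its level chose the libraries. Spi1, which encodes PU.1, stood at 395 to 466 CPM in flox and 468 to 586 CPM in Cre replicates 2 to 4 and was not called (log2 change 0.28, adjusted p = 0.516).

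Within the IRF family, Irf5 rose and Irf7 fell. Irf5, which acts downstream of Toll-like receptors, stood at 173, 149 and 130 CPM in flox, 134 CPM in Cre replicate 1 and 337, 295 and 400 CPM in the others (log2 change 1.19 ± 0.179, adjusted p = 0.000122). Irf7, an amplifier of interferon production, stood at 15.4 to 22.6 CPM in flox, 22.4 CPM in Cre replicate 1 and 8.13 to 9.45 CPM in the others (-1.13). Irf1 was not called (-0.51, adjusted p = 0.105). Among 12 BATF and dendritic-fate factors, Batf3 rose by 3.78 ± 0.305 (adjusted p = 3.72e-08) and Zbtb46, a factor of dendritic cells, fell by 1.28.

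Of 31 homeostatic microglial genes, 7 rose, 3 fell and 21 were not called, with a median of 0.20, and with 1 further library left out the number that rose was 3 (without flox replicate 3 or Cre replicate 2), 4 (without flox replicate 1 or Cre replicate 4), 5 (without flox replicate 2) or 10 (without Cre replicate 3). The 3 falls became 1 without flox replicate 2 or Cre replicate 2. Upk1b, a tetraspanin, had 7.06 to 9.92 CPM in flox, 2.39 CPM in Cre replicate 1 and 249, 194 and 261 CPM in Cre replicates 2 to 4 (log2 change 4.85). The purinergic receptor P2ry12 stood at 1930, 1900 and 1710 CPM in flox, 1820 CPM in Cre replicate 1 and 3060, 2650 and 2860 CPM in the others. Its log2 change was 0.63 ± 0.178 (adjusted p = 0.039), and the call was lost without flox replicate 1 (0.165), flox replicate 2 (0.111), flox replicate 3 (0.268), Cre replicate 2 (0.21) or Cre replicate 4 (0.0849). The call of P2ry12 was also lost with all libraries of the series in one model. Bin1 and Slco2b1 rose by 1.00 and 0.82. Cx3cr1 rose by 1.27 ± 0.197 (adjusted p = 0.00017), and its annotated span overlaps 9 other genes, of which the highest had a mean of 27 CPM. Fcrls, Gpr84 and Olfml3 fell by 1.11, 1.03 and 0.76. The log2 changes of Tmem119 (0.30), Siglech (0.19), Csf1r (0.02) and Trem2 (0.25) were not called, and their flox libraries overlapped with Cre replicates 2 to 4.

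Antigen processing, complement and the lysosome held some of the most abundant genes that rose. Of 16 genes of MHC class II presentation, 6 rose and 1 fell (median 0.25). H2-DMa, a chain of the peptide-loading protein DM, stood at 57, 62 and 47.6 CPM in flox, 33.6 CPM in Cre replicate 1 and 1080, 1150 and 1460 CPM in the others (log2 change 4.47 ± 0.209). H2-DMb2 and H2-DMb1 rose by 3.65 and 1.92. H2-Ob and H2-Oa, which modulate DM, rose by 1.28 and 1.02, as did Ctss. The class II chain H2-Ab1 fell by 0.86, with 0 falls in the list without flox replicate 1, flox replicate 3, Cre replicate 2 or Cre replicate 3, and the invariant chain Cd74 was not called (-0.01, with 68.2 to 141 CPM in flox and 75.2 to 136 CPM in Cre replicates 2 to 4). C1qb, a chain of the complement initiator C1q, stood at 8400, 9440 and 8500 CPM in flox, 7840 CPM in Cre replicate 1 and 30300, 24900 and 37600 CPM in the others (log2 change 1.81 ± 0.222). C1qa and C1qc rose by 1.00 and 0.79, while Cfp, the complement activator properdin, fell by 4.32 and Itgb2, the integrin chain of complement receptors, by 0.71. Of 14 complement genes 3 rose and 2 fell (median -0.11), and 1 rose and 1 fell without flox replicate 1, and 1 fell without flox replicate 2. Complement genes took 2.59% to 2.90% of the counts in flox, 2.62% in Cre replicate 1 and 5.28% to 6.44% in the others. Of 33 lysosomal genes, 9 rose and 0 fell (median 0.26), and 5 rose without flox replicates 1 or 3. Ctsh, the protease cathepsin H, stood at 91.6, 157 and 75.8 CPM in flox, 98.6 CPM in Cre replicate 1 and 2230, 1690 and 2430 CPM in the others (log2 change 4.29 ± 0.264). Ctsz and Ctsc rose by 1.51 and 1.30. Of 21 genes of MHC class I presentation, H2-T23 and Psmb8 rose by 0.85 and 0.86, a count of 2 (9.52%) that became 1 without flox replicate 3 or Cre replicate 2, and B2m missed the threshold (-0.60, adjusted p = 0.077).

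Immune receptors moved in both directions. Of 21 Toll-like receptor genes, 5 rose and 0 fell (median 0.37), among them Unc93b1, the chaperone of endosomal receptors (1.29), and Ly86, the partner of CD180 (1.10), and 3 rose without flox replicates 1 or 3 or Cre replicates 2 or 4. Cd180 (-0.14) and Tlr9 (0.99) were not called. Of 9 SLAM receptors, 4 rose and 1 fell (median 0.99), with Slamf6, Slamf8, Cd84 (1.39) and Cd48 (1.22) higher and Cd244a lower (-3.01), and Ly9 not called (0.47). Among 9 Fc receptor genes, Fcrl1 (2.33) and Fcgr2b (1.89) rose and Fcrls and Fcgrt (-0.82), the neonatal Fc receptor, fell, while 5 rose without Cre replicate 3 and 1 fell without flox replicate 1. Of the Siglec family, Siglecg (2.21) and Cd33 (0.86) rose and Siglec1, the sialoadhesin of macrophages, fell by 3.79. Of 7 C-type lectin receptors, 0 rose and 3 fell, namely Clec4n, Mrc1 (-3.03) and Clec5a (-0.68), while Clec7a was uneven, at 0.106, 17.9 and 0.813 CPM in Cre replicates 2 to 4, and not called. Among 12 chemokine and chemoattractant receptors 3 rose, with Ccr1 and Cx3cr1 among them, and 0 fell. Among chemokines Ccl12 (1.73) and Cxcl16 (1.25) rose and Cxcl14 (-3.31), Ccl7 (-2.57) and Ccl3 (-0.92) fell, 3 falls that became 1 without flox replicate 2. Of 12 purinergic receptor genes, Adora3 (1.83), P2ry13 (0.73) and P2ry12 rose, and 1 rose without flox replicates 1 or 3 or Cre replicates 2 or 4. Of 15 genes of TGF-beta signalling, Acvrl1, a receptor for ligands of the family (4.20), and Eng, its coreceptor (0.66), rose and Smad3 fell, with 1 rise left without any 1 of flox replicates 1 to 3 or Cre replicates 2 and 4. Of 11 genes of the colony-stimulating factor axis, Csf2rb2, a receptor chain, rose by 1.79 and Csf1 fell. Of 16 genes of TAM receptors and engulfment, Axl rose and Stab1 (-0.86) and Gas6 (-0.75), the ligand of Axl, fell, 2 falls that became 0 without flox replicate 1 or Cre replicate 4 and 1 without each of the other libraries. Ncf4, a subunit of the NADPH oxidase, rose by 0.86 as 1 of 6 members, and 0 of 3 genes of the Ifi200 family were called.

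Of 23 genes of lipid handling, 0 rose, 10 fell and 13 were not called (median -0.55), and 6 fell without flox replicate 1. Apoe fell by 3.51 ± 0.265 (adjusted p = 1.52e-08), Apoc1 by 3.66 and Pltp, the phospholipid transfer protein, by 4.22. Apoc4 had 0 counts in Cre replicates 2 to 4 and 1.6 to 4.8 CPM in flox, at least 26.6-fold lower. Lpl, lipoprotein lipase, stood at 44.9, 18.6 and 20.9 CPM in flox, 49.4 CPM in Cre replicate 1 and 3.07, 14.3 and 4.98 CPM in the others (-1.93), and its call was lost without flox replicate 1 (adjusted p = 0.0732), with DESeq2 (0.0993) and with all libraries of the series in one model (0.281). Lipid genes, mostly Apoe, took 1.08% to 2.00% of the counts in flox, 1.39% in Cre replicate 1 and 0.174% to 0.212% in the others. Of 30 genes of disease-associated microglia, a state described in Alzheimer models, 5 rose and 11 fell (median -0.39), and 3 rose without flox replicates 1 or 2 or Cre replicates 2 or 4. Cst7, cystatin F, stood at 143, 139 and 145 CPM in flox, 119 CPM in Cre replicate 1 and 33.1, 25.6 and 33.8 CPM in the others (-2.21 ± 0.175, adjusted p = 2.85e-08). Csf1, the ligand of CSF1R, fell by 2.01 and Igf1, a growth factor, by 2.93. The members that rose were Cd52 (3.28), Axl (2.34), Ctsz, Ctsb (0.71) and Serpine2 (0.59), and Spp1 (1.20) and Itgax (-0.11) were not called.

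Of 30 interferon-response genes, 0 rose and 8 fell (median -0.29), and besides those given below Isg15 (-1.08), Irf7 and Ddx58 (-0.84) were among them. Oas2 and Oasl2, of the oligoadenylate synthetase family, fell by 4.20 and 1.51, Gbp2, a guanylate-binding protein, by 2.81, and Rtp4 by 1.64, the last from 217, 184 and 207 CPM in flox to 73.7, 67.9 and 54.2 CPM, with 235 CPM in Cre replicate 1. Ifit3 fell by 1.03 and its call was lost without flox replicate 1 (adjusted p = 0.118), flox replicate 3 (0.0515) or Cre replicate 4 (0.0824). The calls of Ifit3 and Irf7 were also lost with all libraries of the series in one model. Of 13 inflammasome and interleukin 1 genes, Il1a (1.71), Pycard (0.98), Il18 (0.88) and Gsdmd (0.79) rose and Il1b (-3.66) and Il1rn (-3.06) fell, 2 falls that became 1 without each library other than Cre replicate 4.

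Of 27 immediate early genes, which respond to tissue dissociation, 0 rose, 9 fell and 18 were not called (median -0.45), led by Ier3 (-3.81), Il1b and Fos (-3.26). Fos stood at 18.5, 2.51 and 17 CPM in flox, 11.4 CPM in Cre replicate 1 and 0.636, 2.79 and 0.61 CPM in the others, so flox replicate 2 lay within the range of the Cre libraries. The list took 0.149% to 0.213% of the counts in flox, 0.175% in Cre replicate 1 and 0.116% to 0.134% in the others, and its part in the other results was not tested. Of 27 cell cycle genes, Birc5 (-2.77) and Tk1 (-1.32) fell and 0 rose, a count of 2 (7.41%) that is near the 6.24% of all genes and was 0 without flox replicate 1 or Cre replicate 4, 1 without Cre replicate 2, 3 without Cre replicate 3 and 4 without flox replicate 2.

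Of 18 markers of border macrophages, which line the meninges and vessels, 9 were tested, of which 6 fell and 3 were not called (median -2.06). Those that fell were Pf4, Siglec1, Cbr2 (-3.39), Mrc1, Dab2 (-2.06) and Stab1 (-0.86). The whole list of 18 took 0.0626% to 0.0729% of the counts in flox, 0.0644% in Cre replicate 1 and 0.0188% to 0.0386% in the others. Of the markers held to define these cells, Lyve1 was at 0 to 0.12 CPM and Folr2 at 0 CPM in flox and Cre replicate 1, and both were at or below 0.232 CPM in Cre replicates 2 to 4, while Cd163 was at 0.72 to 2.62 CPM in flox, 1.44 CPM in Cre replicate 1 and 0 to 0.318 CPM in the others. The part of border macrophages in the genes that fell was not tested. Neutrophil genes took 0.0277% to 0.0418% of the counts in flox, 0.0286% in Cre replicate 1 and 0.0163% to 0.0262% in the others, with 0 of 4 called (3 lower without Cre replicate 4). Monocyte genes took 0.00504% to 0.00681% in flox and Cre replicate 1 and 0.0021% to 0.00242% in the others, lymphocyte genes 0.0235% to 0.0357% and 0.0523% to 0.0574%, and astrocyte genes 0.0223% to 0.0286% and 0.0321% to 0.0456%. These shares did not overlap, and their part in the results was not tested. They can rest on single genes. In the lymphocyte list, with 2 of 21 genes tested, Ighm stood at 136, 110 and 124 CPM in flox. It stood at 150 CPM in Cre replicate 1 and 382, 351 and 438 CPM in the others. The monocyte list holds Cd244a, also counted as a SLAM receptor, with a mean of 23.9 CPM over the 7 libraries. Neuron genes took 0.0349% to 0.0738% over all libraries, oligodendrocyte genes 0.0271% to 0.0463% and endothelial genes 0.00392% to 0.00725%, and these overlapped between the groups. Among the lists of other cells Plac8 (1.87), Ighm (1.66), Cnp (1.5), Slc1a3 (1.29) and Pecam1 (1.06) rose and Cd244a, Nr4a1 and Egfl7 (-2.80) fell, with 0 of 14 neuron genes called. The call of Pecam1 was lost without each library other than Cre replicate 3, that of Egfl7 without flox replicate 3, that of Cspg4 without each library other than flox replicate 1 and that of Plac8 without Cre replicate 4. Of the 2 monocyte falls, 1 was left without flox replicates 1 or 3 or Cre replicates 2 or 4. Pericyte and fibroblast genes took 0.000653% to 0.0016%, with Cspg4 lower (-1.43), and red blood cell genes 0.0416% to 0.187%, the highest in Cre replicate 3, with 0 of 5 called. Of 7 dendritic cell markers Zbtb46 alone was called.

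**Figure D4:**
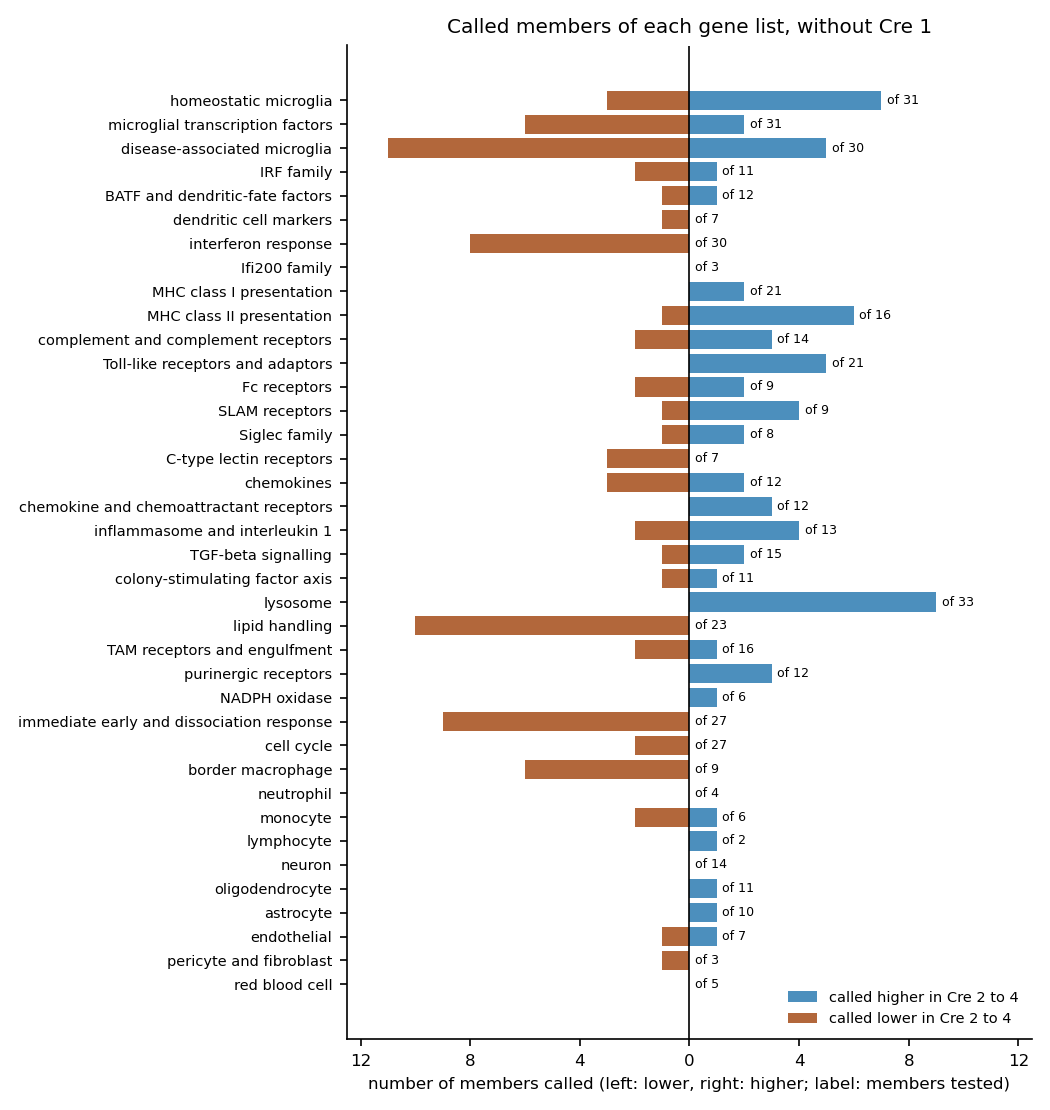
Members of each gene list called in the fit without Cre replicate 1, with bars to the right for those higher and bars to the left for those lower in Cre replicates 2 to 4, and the number of members tested beside each bar. Lipid handling (10 lower, 0 higher of 23) and lysosome (9 higher, 0 lower of 33) lie on opposite sides.

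The germline knockout at 3 months, which shares no library with the conditional experiment, was set beside it. There 970 of 13121 genes were called between IRF8KO and WT (7.39%). Of 11996 genes tested in both experiments, 164 were called in both, which is 18.6% of the 882 called in the conditional and 19% of the 861 called in the germline experiment. In 146 of the 164 (89%) the signs were opposite, with 85 higher in Cre and lower in IRF8KO and 61 lower in Cre and higher in IRF8KO. Across these 164 genes, chosen for being called in both, the log2 changes correlated at -0.748 (Pearson) and -0.766 (Spearman), and across all 11996 genes at -0.22 and -0.113. Genes share their libraries and are not independent. Batf3 changed by -5.33 in IRF8KO and 3.78 in Cre, Aif1 by -4.68 and 1.5, Apoe by 2.92 and -3.51, Cst7 by 2.34 and -2.21, Pf4 by 3.97 and -5.58, and P2ry12 by -3.04 and 0.63. Irf8 is counted in the 164 and in the 18 with the same sign (-1.12 and -1.32), although its level chose the library left out and its call there is no test. The others with the same sign included Lpl (-2.25 and -1.93), whose conditional call was lost under the settings given above, and Cck (-2.98 and -6.15), which were lower in both, and Pirb, an inhibitory receptor (2.07 and 2.65), which was higher in both.

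**Figure D5:**
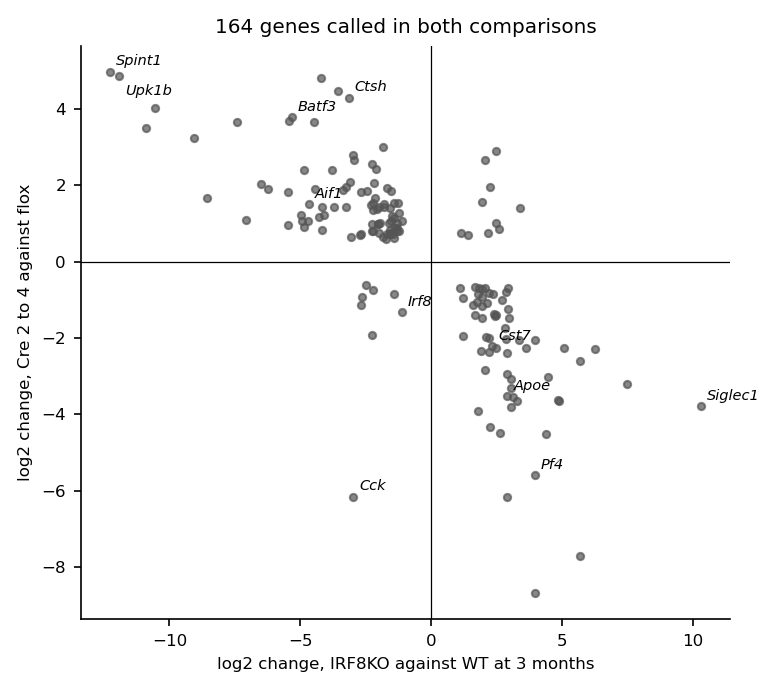
The 164 genes called in both comparisons, by their log2 change in the germline knockout (x axis, IRF8KO against WT at 3 months) and in the conditional experiment without Cre replicate 1 (y axis, Cre against flox). Of these, 146 lie in the upper left or lower right quadrant, and Cck and Irf8, whose level chose the library left out, are among the 8 at the lower left.

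The difference of the 2 effects was tested in 1 model, as the Cre minus flox change less the IRF8KO minus WT change. It was called for 1223 of 17361 genes with all 7 conditional libraries (7.04%) and for 1135 of 17123 without Cre replicate 1 (6.63%), and the second count was 523 to 674 when any 1 further flox or Cre library was left out. Without Cre replicate 1 the difference was 9.16 ± 1.02 on the log2 scale for Batf3 (SE, adjusted p = 4.39e-05), -6.33 ± 0.715 for Apoe (adjusted p = 5.08e-05) and 6.25 ± 0.585 for Aif1 (adjusted p = 8.01e-06). For Irf8 it was -0.11 ± 0.362, given without a test, and for Lpl 0.43 ± 0.762 (adjusted p = 0.826). On each experiment's own scale of CPM without TMM, Batf3 was 29.7 ± 17.2 in the WT of the germline experiment (SD, n = 4) and 0.816 ± 0.804 in IRF8KO (n = 4). It was 24.6 ± 1.96 in a separate WT group at 3 months (n = 3), titled as the control for a Batf3 knockout, and 3.63 ± 1.40 in flox (n = 3). Spint1 was 66.3 ± 24.4 and 416 ± 15.5 in the same WT groups, 0 in every IRF8KO library and 5.82 ± 2.97 in flox. Irf8 was 232 ± 20.5 and 1030 ± 56.5 in the WT groups, 119 ± 39.9 in IRF8KO and 1120 ± 84.7 in flox. For Batf3 and Spint1 the flox group stood below both WT groups, and for Irf8 it stood above the WT of the germline experiment and overlapped with the separate WT group, at 1020 to 1170 against 968 to 1080 CPM. Spint1 was named for its rise over flox, which favours a low flox level. For Aif1 the flox mean of 355 CPM lay between those of the WT groups (784 and 265 CPM). The same held for Sall1, at 71.1 CPM in flox against 42.5 and 351 CPM. The experiments differ in depth and were not handled together as far as the labels say, so these levels are set side by side without a test.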

How the data were processed

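Each library was deposited by the authors as raw read counts per gene in the layout written by STAR, and the unstranded column was taken because either strand column held 49.5% to 50.1% of the reads. The submitters' processing notes name bcl2fastq, STAR 2.5.2b, Picard 2.17.11, Subread, featureCounts and mm10, without roles. Cells were sorted into TRIzol and libraries made with SMART-Seq v4 and Nextera XT, per the labels' protocols. Of 54146 gene identifiers, 54079 were found in GENCODE M21 (GRCm38), which gave symbols and coordinates, and 67 were not. Counts of unassigned reads stayed out of library sizes.

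Genes were tested in R 4.3.3 by edgeR 4.0.16 (quasi-likelihood F-test), after its default filter on low counts, with TMM factors and Benjamini-Hochberg adjustment over all genes tested, and called at an adjusted p under 0.05. Adjusted p-values are edgeR's where no tool is named, and SE were taken from its F statistic. The fit was made with all 7 libraries and with 6, without Cre replicate 1. DESeq2 1.42.0 and limma 3.58.1 (voom with quality weights), other scalings and filters, the replicate numbers and each library left out were alternatives. In simulated data with 200 genes changed 4-fold, 96% were recovered with 7 libraries and 99.5% without Cre replicate 1. Of 4-fold differences between the experiments 9% were recovered. The change was put into every library titled Cre, and only into genes of higher counts. In the data Cre replicate 1 lay with flox in most called genes, so the simulated recovery with 7 libraries does not describe the real fit.

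The members, the gene lists and the rule for naming genes were chosen with earlier results of these data known. Named were 30 fixed genes, the 12 largest falls and 12 largest rises among called genes without overlap whose higher group averaged 5 CPM or more, the 3 largest differences in each direction, and up to 4 called members of a list in each direction. Some of these genes are counted but not reported here by name. A few further called members are named to complete a list's count. The rule would also have named genes called with 7 libraries, of which there were 0. Where a group had 0 counts, a fold is a bound against 3 counts over the group. Promoters are the 250 bases before a RefSeq start in GRCm38.p6.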

Additional observations from a re-analysis of the deposited data

Results flagged for a closer look

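In the 4 libraries titled Cre, 14 of 51 named genes of at least 5 CPM had 1 library apart from the other 3, with a gap to the nearest library, as a share of the whole range, above Dixon's 95% critical value for 4 samples. Chance gives about 1 in 20 independent groups, but these genes share the same 4 libraries, and 10 of the 14 were named as the largest falls in Cre replicates 2 to 4 after Cre replicate 1 had been left out, so the count cannot be read against that rate. Cre replicate 1 stood apart in 13 of the 14. The share was 0.998 for Cdc42ep1, 0.995 for Cck and for Pf4, 0.986 for Ch25h, 0.98 for Ifitm2, 0.978 for Tfec, 0.967 for Adgre5, 0.964 for Cd300ld and 0.941 for Apoe. It was 0.929 for F630028O10Rik, 0.912 for Cst7, 0.907 for Irf7 and 0.868 for Ifitm1. In Cd74 it was Cre replicate 4 that stood apart (0.901).

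The difference between the conditional and the germline change was called for 1223 genes with all 7 conditional libraries and for 1135 without Cre replicate 1. Without that library it was 9.16 on the log2 scale for Batf3, 6.25 for Aif1, 5.88 for Sall1, 3.75 for P2ry12, 2.47 for Irf5, 2.39 for Siglech, 2.27 for Trem2 and 2.16 for Cx3cr1. It was -6.33 for Apoe, -4.47 for Cst7 and -4.14 for Csf1. Each of these was tested as the difference itself in edgeR's quasi-likelihood model. A called difference need not mean a change between flox and Cre, where 0 genes were called with 7 libraries. Siglech and Trem2 were not called between flox and Cre without Cre replicate 1 (0.19 and 0.25). In the germline experiment they changed by -2.12 and -1.93.

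The 3 largest differences in each direction without Cre replicate 1 were those of Spint1 (17.35), Upk1b (16.9), Slamf8 (14.68), Siglec1 (-14.1), Clec2i (-13.39) and Apoc4 (-13.22). With all 7 libraries they were those of Spint1 (16.93), Upk1b (16.49), Slamf8 (14.28), Clec2i (-13.39), Siglec1 (-12.53) and Rab44 (-12.51). Where a group was at 0 counts, as IRF8KO was for Spint1, the fitted size depends on the prior count.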

How the results depend on the processing

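With 7 libraries edgeR called 0 genes, as it did with RLE factors, with a filter at 5 CPM in 3 libraries and with the number series (the leading digits of the deposited sample numbers) as a term. There were 164 calls with DESeq2, 257 with limma voom, 618 with no filter on low counts and 3 with all libraries of the series in one model. Leaving out 1 library gave 0 to 952 calls, with 952 without Cre replicate 1 and 1 without Cre replicate 3. Without Cre replicate 1 the 952 calls became 111 with all libraries in one model, 110 of them shared, and were between 917 and 1313 under the other settings and 648 to 1269 with 1 further library left out. The calls of Cx3cr1 (adjusted p = 0.0583) and Irf5 (0.574) were among those lost in the model of all libraries. Of the largest falls, Apob (0.198) and Tfec (0.211) lost their calls in that model. Of the largest rises, Ms4a4c (0.0558), Gm35154 (0.171), Slamf6 (0.0689), Plet1os (0.43), Adgrg5 (0.31) and AU022793 (0.198) lost theirs. The calls of P2ry12, Sall1, Axl, Ifit3, Irf7 and Lpl were also lost in it. The difference between conditional and germline changes was called for 2162 genes (7 libraries) and 1909 (without Cre replicate 1) by DESeq2, and for 471 to 1780 and 523 to 1700 with 1 library left out. The cause of these changes was not tested.

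Same-numbered libraries correlated at -0.0789, 0.222 and 0.17 in their deviations from the group means, and Cre replicate 4 has no partner. The Cre mean included Cre replicate 1, so these values cannot show whether replicate numbers pair the samples. Other pairs reached 0.232 (flox 3 with Cre 1) and 0.208 (flox 2 with Cre 4), and -0.311 (flox 3 with Cre 2). Flox replicate 2 and Cre replicates 2 and 4 share a number series and stood above the rest on the second principal component (7.55 to 23.6, against -30.6 to 6.69). With that series as a term there were 1137 calls without Cre replicate 1, 893 of them shared. With the replicate block there were 0 calls with 7 libraries and 1066 without Cre replicate 1, of which 808 were shared. The block turned the log2 change of Tmem119 to -0.01 (7 libraries) and -0.03 (without Cre replicate 1), of Siglech to -0.03 (7 libraries) and of Csf1r to -0.07 (without Cre replicate 1), none of them called, and P2ry12 lost its call (adjusted p = 0.0913, and 0.061 with RLE factors).

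Other reversals were in genes that were not called. With 7 libraries and 1 left out, the range was -0.02 to 0.19 for Siglech, -0.15 to 0.05 for Csf1r, -0.32 to 0.32 for Cd74, -0.17 to 1.13 for Ly9 and -5.58 to 0.14 for Pf4. Without Cre replicate 1, Csf1r was -0.01 with the 5 CPM filter, -0.13 with the number series and -0.03 in the model of all libraries, and Cd74 was 0.05 with the number series. With 1 further library left out the range was -0.09 to 0.19 for Csf1r, -0.5 to 0.14 for Itgax and -0.35 to 0.37 for Cd74. The pericyte list gave no value under the 5 CPM filter without Cre replicate 1. In simulated data 2-fold changes, put into every Cre library, were recovered in 37.5% of genes with 7 libraries and 72.5% without Cre replicate 1. Changes of this size can thus be missed in either fit. The simulation with 7 libraries took its spread from libraries that include Cre replicate 1, so the 2 shares do not compare numbers of libraries.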

Other observations

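The genes here were chosen after their values were seen. Adam9, a membrane metalloprotease, stood at 17, 16.2 and 14.6 CPM in flox, 6.58 CPM in Cre replicate 1 and 5.09, 4.76 and 4.98 CPM in Cre replicates 2 to 4. Its log2 change was -1.57 with 7 libraries (adjusted p = 0.18 by edgeR) and -1.69 without Cre replicate 1 (adjusted p = 0.000159). Cd276, an immune checkpoint molecule, stood at 22, 18.2 and 20.3 CPM in flox, 9.57 CPM in Cre replicate 1 and 8.37, 6.28 and 6.71 CPM in the others. In both genes Cre replicate 1 lay with the other Cre libraries and below flox. Qpct, glutaminyl cyclase, stood at 2.15, 5.01 and 2.88 CPM in flox, 68.9 CPM in Cre replicate 1 and 117, 7.44 and 97.1 CPM in the others, so that here Cre replicate 3 was nearest to flox. Of 884 genes of at least 5 CPM in which the 3 flox libraries did not overlap with the 4 Cre libraries, Cre replicate 1 was nearer to the other Cre libraries in 518, a count that the absence of overlap favours. At any level, 1134 of 15512 tested genes (7.31%) did not overlap, and groups this small also separate by chance. The 518 cannot be set against the 93.6% of called genes nearer to flox, which were chosen otherwise.

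The transcript at the locus that carries the reporter, Gt(ROSA)26Sor, had 16, 17 and 13 counts in flox, 52 in Cre replicate 1 and 7, 64 and 6 in Cre replicates 2 to 4 (1.91, 1.94 and 1.56 CPM, 6.22 CPM, and 0.742, 7.44 and 0.61 CPM). Cre replicates 1 and 3 were above flox and Cre replicates 2 and 4 below it. Cre replicates 2 and 4 share a number series of deposited samples with flox replicate 2, which had 17 counts. The gene was not called by edgeR with 7 libraries (adjusted p = 0.804) or without Cre replicate 1 (0.768). Within 5 Mb of Irf8, 4 of 103 genes were called without Cre replicate 1 (3.88%), and within 5 Mb of Cx3cr1 6 of 89 (6.74%), beside 6.24% of all genes.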
